A study of Mus musculus with 16 samples.

Results

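The genes described here are 8 genes of pulmonary surfactant and of the alveolar epithelium, Sftpb, Sftpa1, Sftpc, Sftpd, Abca3, Napsa, Lamp3 and Ager, out of 18570 genes and unnamed transcripts measured. They were chosen by symbol: every array probe whose transcript accession belongs to 1 of the 8 symbols was taken, which gave 13 probes, 11 of them bright enough to keep. They were measured in airway epithelium that had been collected by brushing from FvB mice, on 16 one-colour expression arrays. The animals compared were FvB wild type mice (wt) and mice in which Itgb6, which encodes integrin subunit beta6, was knocked out (ko). They received ovalbumin (OVA), an egg protein that provokes allergic airway inflammation, or saline. This gave 4 groups of 4 arrays, named wt_saline, wt_OVA, ko_saline and ko_OVA. Mice were 6 to 8 weeks old at sensitization, which used 20 ug of OVA into the peritoneum on days 1, 4 and 7. Challenge used 10 ug of OVA into the nose weekly for 9 weeks, and tissue was taken 24 h after the last dose. The saline groups received saline at the same times and by both routes. The labels do not say whether each array holds RNA of a separate mouse, so the p-values measure the spread between these samples.

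Surfactant is a film of phospholipid and protein that lowers surface tension in the alveoli. Alveolar type 2 cells make it, store it in lamellar bodies and secrete it, while flat alveolar type 1 cells cover most of the gas exchange surface. The 2 hydrophobic proteins SP-B and SP-C spread the lipid, and the 2 collectins SP-A and SP-D bind microbes. Sftpc is the classical type 2 cell gene of the adult lung, whereas Sftpb is also made by club cells, the secretory cells of the airway surface, and Sftpa1 and Sftpd are transcribed in airway epithelium too.

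Levels are log2 signals relative to the 75th percentile of the array, with a floor at -3.32 to which lower signals were set, whether or not they were above background. They can be compared between arrays for 1 probe but not between probes. The 75th percentile ran from 78.0 to 793 intensity units among arrays, and 43.3% to 74.5% of probes were well above background, with the dimmest array ko_OVA 4. Itgb6 itself gave signal on every array, at -0.93 to -0.39 over the wt arrays and at -1.71 to -0.73 over the ko arrays, and the files do not say whether its probes lie in the disrupted part, so it checks no label. Markers of airway cells were present throughout: the mean level of 21 measured club cell genes was 5.73 to 6.99, that of 12 ciliated cell genes 3.12 to 3.99 and that of 7 basal cell genes 3.44 to 5.24 over the 16 arrays. In RNA from mixed cells, fewer cells of a type and less RNA per cell cannot be told apart.

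Sftpb encodes SP-B, the small hydrophobic protein without which surfactant does not spread. In wt_saline its level was 1.26, 1.45, 1.12 and 1.13 on the 4 arrays, and in wt_OVA it was -1.55, -1.18, -2.15 and -1.69. In ko_saline it was 1.64, 1.05, 1.5 and 2.21, and in ko_OVA it was -0.53, -1.08, -0.45 and -1.79. Every saline array lay above every OVA array, with no overlap in either genotype, and the probe was well above background on all 16 arrays.

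Sftpb fell with OVA in both genotypes. In wt the mean went from 1.24 ± 0.15 (SD, n = 4) to -1.64 ± 0.40, a log2 change of -2.88 ± 0.30 (SE; limma, adjusted p = 0.000232), or 7.35-fold lower with OVA. In ko the mean went from 1.6 ± 0.48 to -0.96 ± 0.62, a change of -2.56 ± 0.30 (limma, adjusted p = 0.000932), or 5.91-fold lower. Averaged over genotypes the change was -2.72 ± 0.21 (limma, adjusted p = 8.33e-06), and Sftpb was the only 1 of the 8 genes called, where 6.46% of all genes were called, 3.72% higher and 2.74% lower. An exact two-sided permutation test gave p = 0.0286 in each genotype, the smallest that 4 against 4 arrays allow, and p = 0.000408 for the averaged change, also the smallest possible. The change in ko minus that in wt was 0.32 ± 0.42 (limma, adjusted p = 0.993), with a 95% interval from -0.58 to 1.21, so a difference between the genotypes was not shown at this precision.

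Arrays lay on 4 slides, and both groups of a genotype were present on 3 of them. Within these slides the difference of OVA and saline arrays was -2.30, -2.95 and -2.97 in wt and -2.66, -2.17 and -2.35 in ko. With only the ko_saline and ko_OVA arrays in the limma fit, the ko change no longer passed (adjusted p = 0.0992), while its size stayed at -2.56; in that fit 6 genes were called higher and 1 lower.

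**Figure D1:**
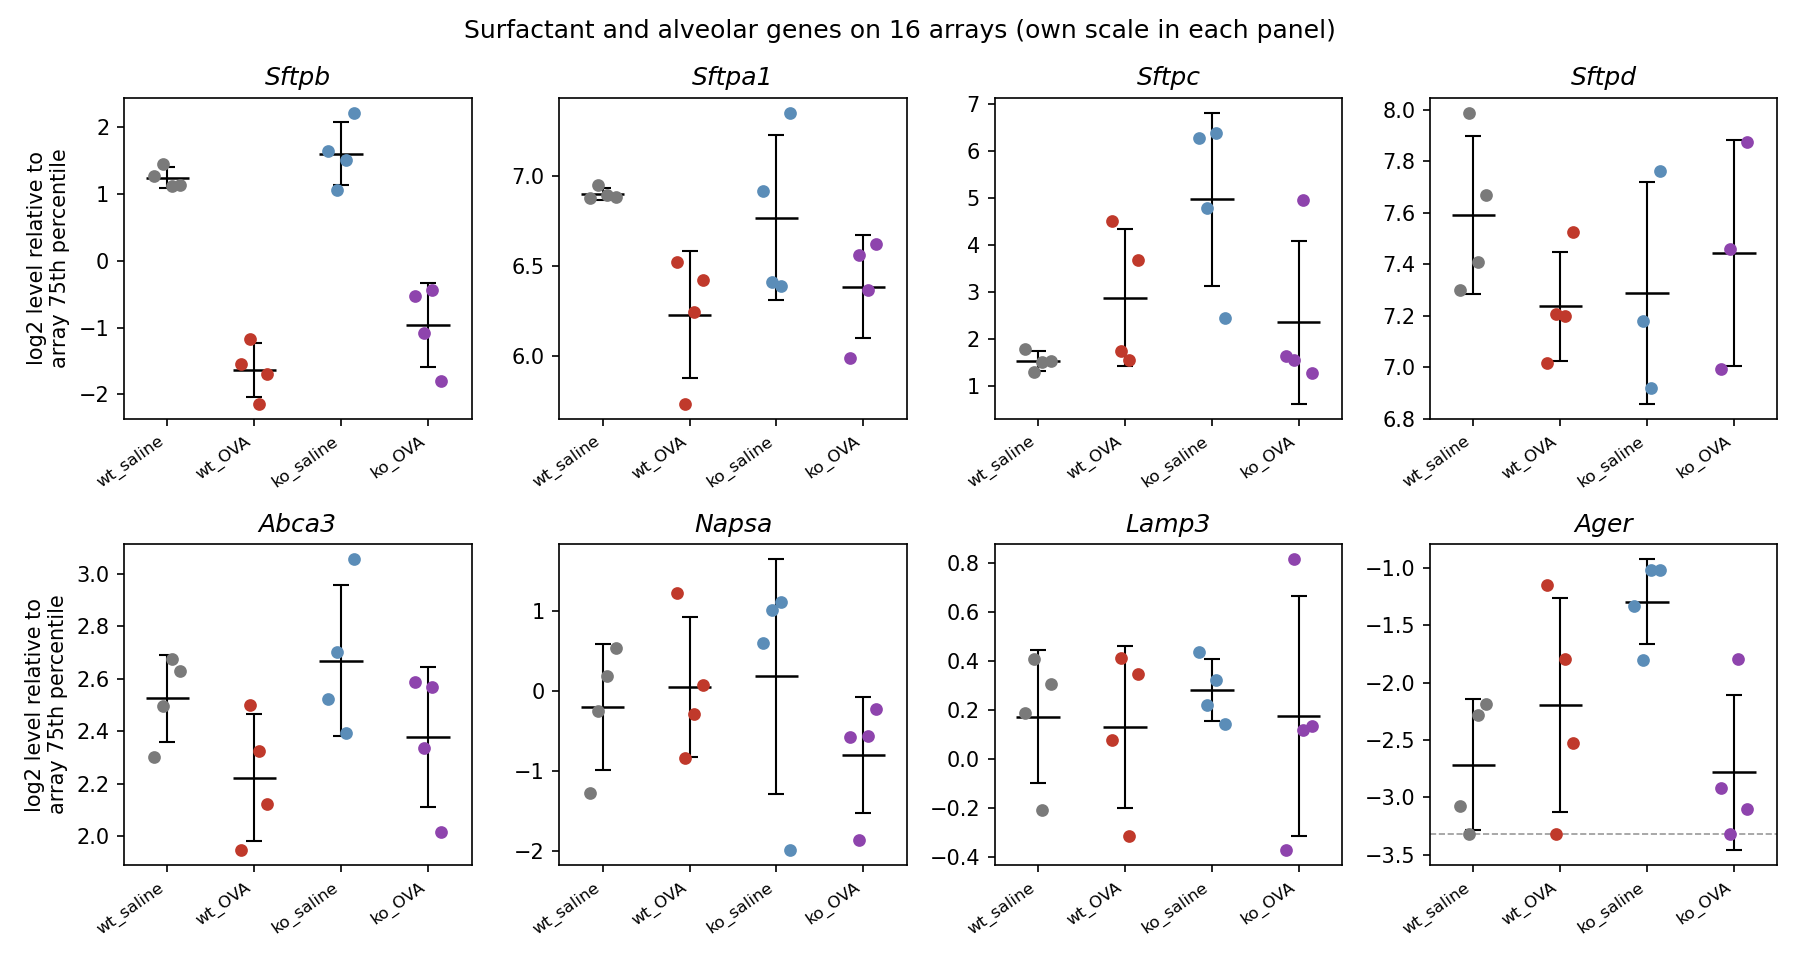
Level of each of the 8 genes on the 16 arrays, as log2 signal relative to the array's 75th percentile, with a separate vertical scale in each panel; points are arrays, horizontal bars group means and vertical bars SD. The saline arrays of Sftpb sit between 1.05 and 2.21 and its OVA arrays between -2.15 and -0.45, whereas Sftpc spreads widely within 3 of its groups; the dashed line for Ager is the floor at -3.32.

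Of the 8 genes, Sftpb was the only 1 called in either comparison of OVA with saline at an adjusted p of 0.05 over all genes. In wt 2.61% of all 18570 genes were called, 1.56% higher (289 genes) and 1.06% lower (196 genes). In ko 0.749% were called, 0.479% higher (89 genes) and 0.269% lower (50 genes). With each array divided by its median instead of its 75th percentile, the median change of all genes in wt moved to -0.25 and the split became 39 higher and 61 lower, with Sftpb at -3.15. For the average over genotypes the split of 691 higher and 509 lower became 117 and 262. Groups that did not overlap were found for Sftpb and Sftpa1 in wt, in the lower direction, which 4.41% of all genes showed (4.87% the higher direction), and for Sftpb in ko, which 2.14% showed (3.09% the higher direction).

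The bases before the start of the Sftpb gene are shown beside those of the collectin gene Sftpa1, which has the same upstream regulator. With OVA Sftpb was called and Sftpa1 was not by its brightest probe, though its other probe passed averaged over genotypes. The part of these sequences in that difference was not tested. NKX2-1 and forkhead factors of the FOXA family are known to bind the proximal Sftpb promoter. The sequences come from RefSeq (GRCm38.p6), where 5 of the 8 genes had an entry, and each is the 250 bases before the start, 5′ to 3′ on the gene's strand. Capitals mark matches, on either strand, to CTCAAG, a core of NKX2-1 sites, and to TGTTTNC, a core of forkhead sites. The Sftpb window is chr6:72304360-72304609 and the Sftpa1 window is chr14:41131538-41131787, both on the plus strand.
Sftpb: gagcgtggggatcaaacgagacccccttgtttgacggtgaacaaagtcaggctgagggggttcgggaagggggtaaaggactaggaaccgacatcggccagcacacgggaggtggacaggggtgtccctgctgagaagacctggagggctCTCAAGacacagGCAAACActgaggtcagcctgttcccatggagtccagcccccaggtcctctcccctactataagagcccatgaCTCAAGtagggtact
Sftpa1: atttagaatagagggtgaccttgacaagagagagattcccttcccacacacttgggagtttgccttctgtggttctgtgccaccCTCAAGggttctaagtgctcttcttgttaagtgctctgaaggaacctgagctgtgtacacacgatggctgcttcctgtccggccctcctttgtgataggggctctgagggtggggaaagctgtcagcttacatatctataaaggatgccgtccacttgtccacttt
In the Sftpb window CTCAAG stood on the gene's strand at 100 to 95 and at 15 to 10 bases before the start, and the forkhead core stood on the other strand at 88 to 82 bases. The Sftpa1 window held CTCAAG once, at 166 to 161 bases, and no match to the forkhead core. The windows of Abca3 and Ager held neither motif, and that of Lamp3 held the forkhead core at 2 places. Of 32851 promoter windows of this length, 13.3% held CTCAAG and 17.8% held the forkhead core on either strand, and no 2 of the marked matches overlapped.

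The regulators of these genes were measured as a list of 17, of which 16 gave values. Nkx2-1, the homeodomain factor that switches on the surfactant genes, lay between 1.25 and 1.67 on all 16 arrays, and its change with OVA was 0.12 in wt (limma, adjusted p = 0.537) and 0.03 in ko (adjusted p = 1). Foxa1 ranged from 1.11 to 2.37 and Foxa2 from 4.14 to 4.97, and neither was called, with Foxa2 at 0.19 in wt and 0.17 in ko. The 2 regulators called in each genotype rose, where 1.56% of all genes were called higher in wt and 0.479% in ko. Both also belong to the list of mucous cell genes. Foxa3, a forkhead factor of mucous cells, rose by 1.73 in wt (limma, adjusted p = 5.57e-05) and by 1.69 in ko (adjusted p = 0.000166). Spdef, an ETS factor that drives mucous differentiation, rose by 1.23 (adjusted p = 0.00127) and by 1.22 (adjusted p = 0.00275). The other 14 were not called in either genotype, and the median change of the list was -0.16 in wt and 0.02 in ko, beside 0.00 for all genes in both. In the change averaged over genotypes, Cebpa (-0.45, adjusted p = 0.0312) and Gata6 (-0.54, adjusted p = 0.0453), both activators of surfactant genes, were called lower as well. Of all genes 2.74% were called lower in that change and 3.72% higher.

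Genes whose pattern was most like that of Sftpb were found by Pearson's r over the arrays, as a description, since all arrays share the OVA contrast. Adcyap1r1, a receptor for a neuropeptide, had r = 0.97 over 15 arrays. Over 16 arrays Scgb1c1, a secretoglobin, and Tmie, a membrane protein, had r = 0.96 each, Gstt1, a glutathione transferase, had 0.95, and Aass, an enzyme of lysine breakdown, had 0.94. Scgb1c1 lay between 1.22 and 3.57 on the saline arrays and between -1.91 and 0.78 on the OVA arrays. Aass lay between -0.82 and 0.58 with saline and between -3.11 and -1.38 with OVA, and Gstt1 between -1.04 and -0.26 and between -2.85 and -1.72. None of these ranges overlapped between saline and OVA. Picking genes by their r with Sftpb favours such a split, so it is no separate result.

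**Figure D2:**
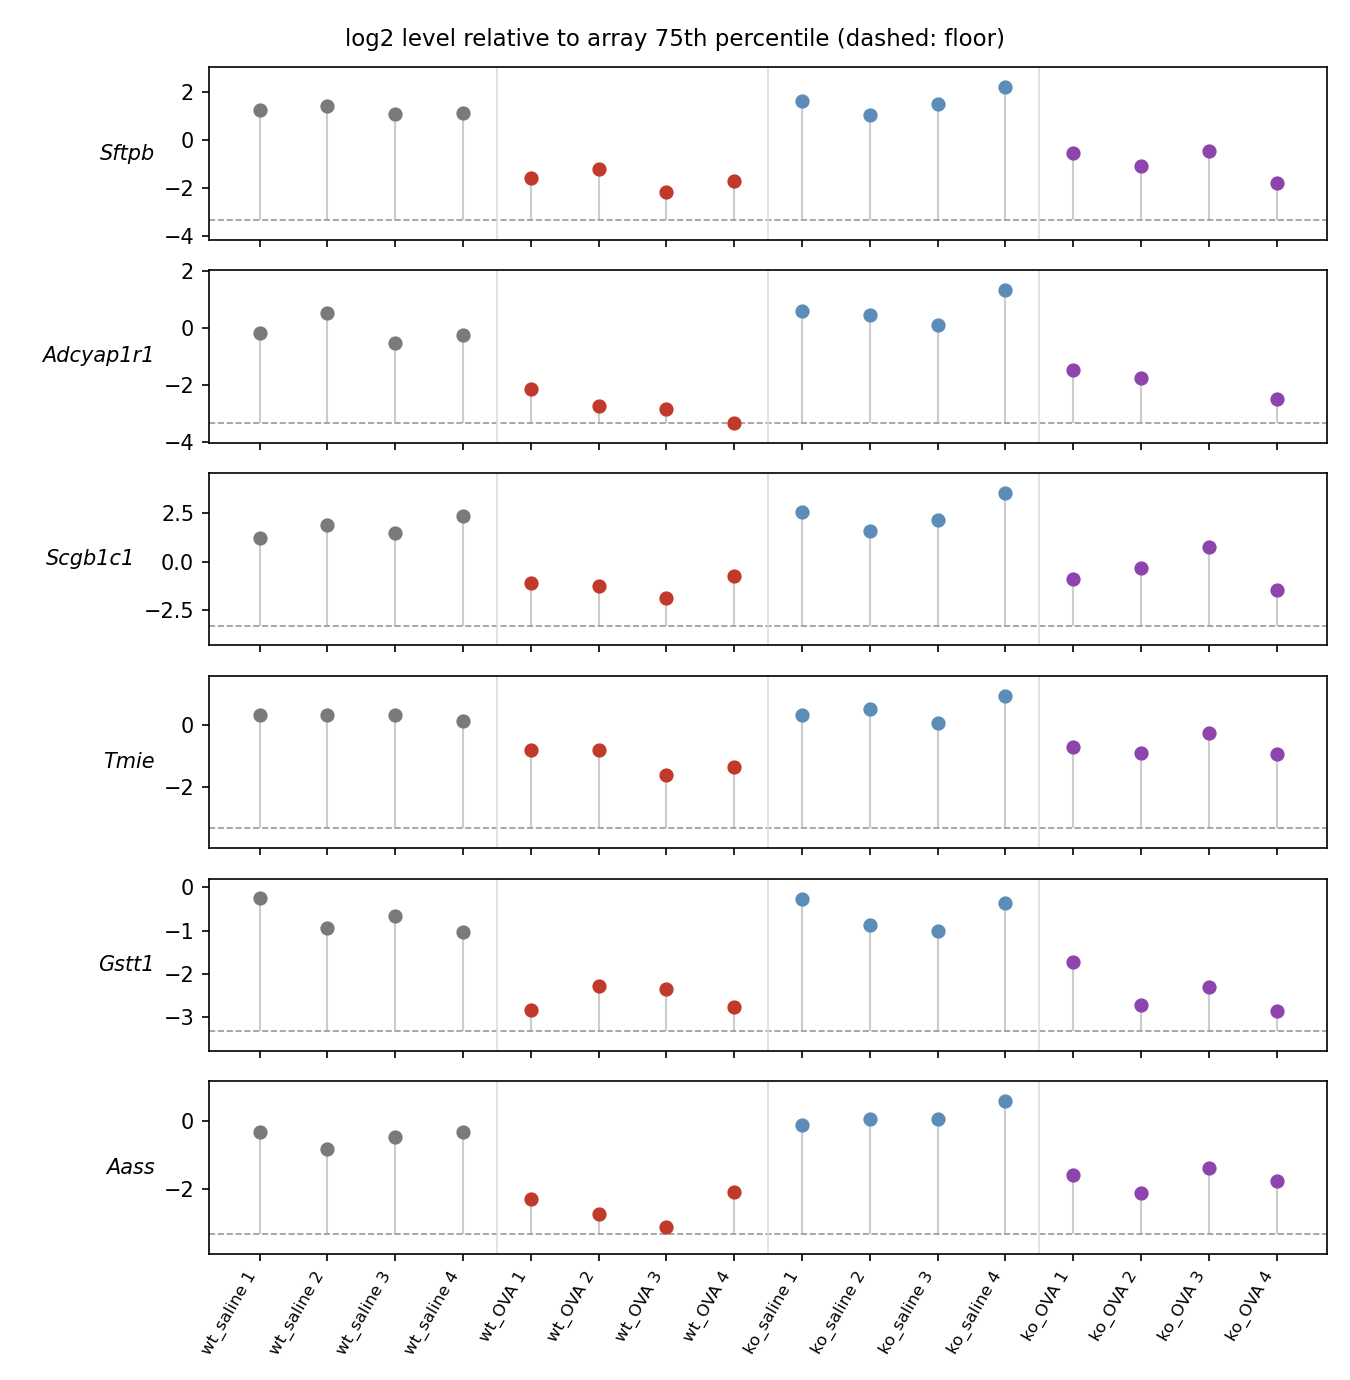
Sftpb and the 5 genes with the highest Pearson r with it, on each of the 16 arrays, as log2 level relative to the array's 75th percentile; colours mark the 4 groups and the dashed line is the floor. In all 6 genes the saline arrays lie above the OVA arrays, a split that picking genes by r with Sftpb favours. Adcyap1r1 has no value on ko_OVA 3, where its spot was left out.

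Scgb1c1 belongs to the club cell list, of which 21 of 22 genes were measured. In wt 5 of the 21 were called lower and 0 higher, and in ko 2 were called lower and 1 higher. Beside these, 1.06% of all genes were called lower and 1.56% higher in wt, and 0.269% lower and 0.479% higher in ko. Scgb1c1 fell by 3.0 in wt (limma, adjusted p = 0.00407) and by 2.96 in ko (adjusted p = 0.00885). Aox3, an aldehyde oxidase, fell by 1.01 (adjusted p = 0.000933) and by 0.61 (adjusted p = 0.0407), and Hp, which binds free haemoglobin, fell by 1.34 in wt (adjusted p = 0.0106). Bpifb1, a secreted defence protein of the airway, rose by 1.24 in ko (adjusted p = 0.0162). The median change of the list was -0.35 in wt and 0.01 in ko. Mucous cell genes, by contrast, were called higher for 11 of 12 measured genes in wt and 9 of 12 in ko, against the same shares of all genes called higher. Foxa3 and Spdef, already given as regulators, are among these in both genotypes. The part of such shifts between cell types in the fall of Sftpb was not tested.

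Whether Sftpb changed more than each of the other 7 genes was tested on the per-array difference of log2 levels, by exact two-sided permutation of saline and OVA labels within each genotype, with p adjusted over the 7 pairs. Sftpb fell further than Sftpa1 by a log2 difference of -2.19, and than Abca3 by -2.42, Lamp3 by -2.65 and Ager by -2.23 (exact p = 0.000408, adjusted 0.000714, for each of these). The difference was -2.70 against Sftpd over 14 arrays (exact p = 0.00143, adjusted 0.002) and -2.35 against Napsa (exact p = 0.00245, adjusted 0.00286). Against Sftpc it was -2.08 (exact p = 0.0465, adjusted 0.0465), and this difference was made of -4.22 in wt and 0.06 in ko. By genotype the difference was -3.40 in wt and -1.07 in ko against Ager, and -3.12 and -1.57 against Napsa, while for the other 4 genes both genotypes lay between -2.88 and -2.18. The Ager probe was at the floor on 3 of 16 arrays, so the size of its difference depends on the floor. The Sftpc pair missed 0.05 in 13 of 21 alternatives. Its largest exact p was 0.161, with normexp background correction, where the difference was -1.35. The exact p was 0.122 without ko_saline 4, 0.109 without ko_OVA 3 and 0.0878 with the series table.

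**Figure D3:**
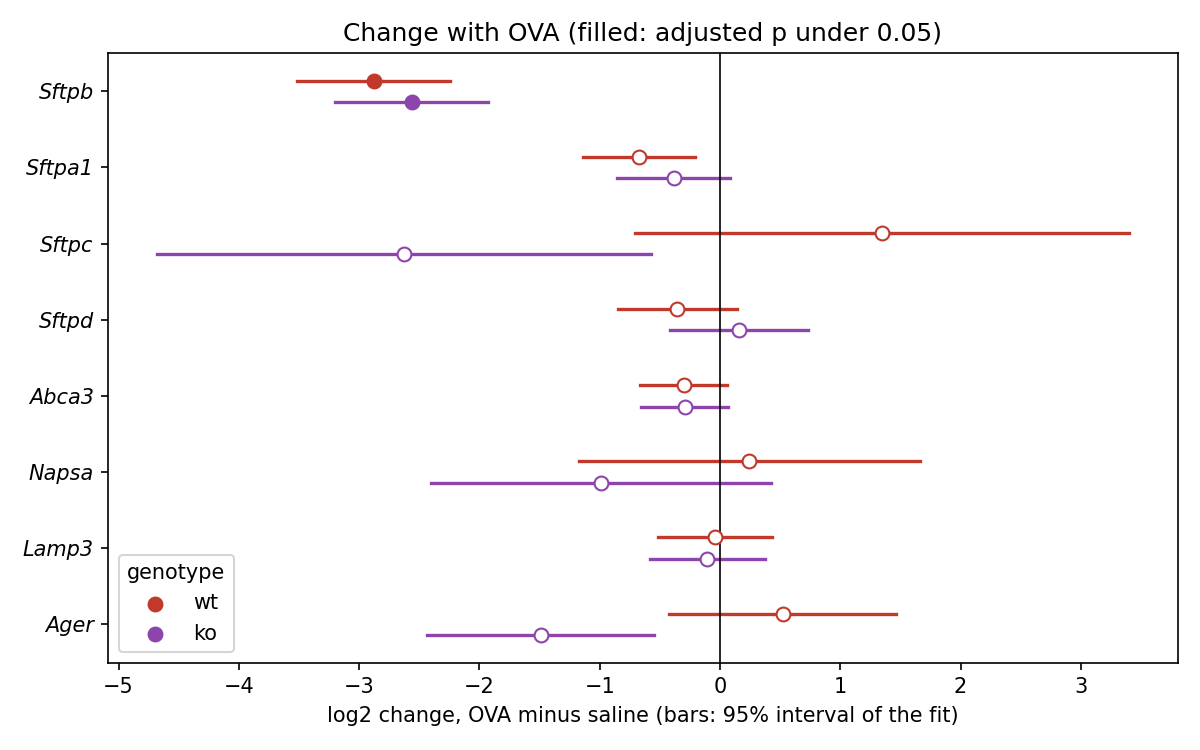
Log2 change with OVA (OVA minus saline) of the 8 genes in wt and in ko; points are the fitted changes, bars their 95% intervals, and filled points passed an adjusted p of 0.05 over all genes. Sftpb lies at -2.88 in wt and -2.56 in ko, and the intervals of Sftpc, Napsa and Ager are wide.

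Sftpa1 encodes SP-A, a collectin of the alveolar and airway lining fluid. Its level was 6.88, 6.95, 6.89 and 6.88 in wt_saline and 6.52, 5.73, 6.24 and 6.42 in wt_OVA, so the 2 groups did not overlap. In ko_saline it was 6.92, 6.41, 6.39 and 7.36 and in ko_OVA 5.98, 6.56, 6.37 and 6.62, and these groups overlapped. The change was -0.67 ± 0.22 in wt (SE, n = 4 and 4; limma, adjusted p = 0.127) and -0.39 ± 0.22 in ko (adjusted p = 0.650). Averaged over genotypes it was -0.53 ± 0.15, which fell just short of the threshold (limma, adjusted p = 0.0569). The other Sftpa1 probe gave an averaged change of -0.65 and passed when all probes were adjusted together (limma, adjusted p = 0.0267). The averaged Sftpa1 change also passed under quantile normalization (adjusted p = 0.0224), normexp, a filter on all arrays, the mean of its probes and the series table, and without ko_saline 3 (adjusted p = 0.0442).

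Sftpd encodes SP-D, the other collectin. It lay at 7.30, 7.99, 7.41 and 7.67 in wt_saline and at 7.02, 7.21, 7.20 and 7.53 in wt_OVA. In ko_saline 3 arrays gave 7.18, 6.92 and 7.76, and in ko_OVA 3 arrays gave 6.99, 7.46 and 7.87, the spot being left out as an outlier on ko_saline 1 and ko_OVA 3. The groups overlapped in both genotypes. The change was -0.35 ± 0.23 in wt (limma, adjusted p = 0.493) and 0.16 ± 0.26 in ko with n = 3 and 3 (adjusted p = 0.969), with 95% intervals from -0.85 to 0.14 and from -0.42 to 0.73.

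Abca3 encodes the transporter that loads phospholipid into lamellar bodies. Its level was 2.30, 2.50, 2.67 and 2.63 in wt_saline, 1.95, 2.50, 2.32 and 2.12 in wt_OVA, 2.52, 2.70, 2.39 and 3.06 in ko_saline and 2.59, 2.34, 2.57 and 2.02 in ko_OVA. Saline and OVA arrays overlapped in both genotypes, and the changes were -0.30 ± 0.17 in wt (limma, adjusted p = 0.402) and -0.29 ± 0.17 in ko (adjusted p = 0.667). A dimmer Abca3 probe gave differences of -0.47 and -0.21, and the dimmest lay at the floor on 13 of 16 arrays. Across arrays Abca3 and Sftpb had r = 0.69, and Sftpa1 and Sftpb had r = 0.65, again over 16 arrays that share the OVA contrast.

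Lamp3 encodes a membrane protein of lamellar bodies, which mature dendritic cells also carry. It lay at 0.19, 0.41, -0.21 and 0.31 in wt_saline, at 0.08, 0.41, -0.32 and 0.34 in wt_OVA, at 0.43, 0.22, 0.32 and 0.14 in ko_saline and at -0.37, 0.82, 0.12 and 0.14 in ko_OVA. The 4 groups overlapped, and the changes were -0.04 ± 0.22 in wt (limma, adjusted p = 0.950) and -0.11 ± 0.22 in ko (adjusted p = 0.994). The other 2 Lamp3 probes were at the floor on all 16 arrays. Of the list of mature dendritic cells 9 of 11 genes were measured and 0 were called in either genotype. Of all genes 2.61% were called in wt and 0.749% in ko. Ccl17, Cd83, Il4i1, Cacnb3 and Relb were above the floor on all 16 arrays. Ccr7 and Cd86 left it on 3 arrays each and Fscn1 and Cd80 on 2 each. The probes of Ccr7 and Fscn1 were still well above background on 11 and 12 arrays. The list's mean level lay between -1.72 and -0.70. The part of these cells in the Lamp3 signal was not tested.

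Sftpc encodes SP-C, the other hydrophobic protein, and was the most variable of the 8 genes. It lay at 1.79, 1.29, 1.52 and 1.53 in wt_saline, at 4.52, 1.75, 1.55 and 3.69 in wt_OVA, at 6.29, 4.80, 6.4 and 2.44 in ko_saline and at 1.63, 1.55, 4.96 and 1.29 in ko_OVA. High values, from 3.69 upwards, stood on 6 arrays: wt_OVA 1 and 4, ko_saline 1, 2 and 3, and ko_OVA 3. The other 10 arrays lay between 1.29 and 2.44. Within its groups Sftpc had an SD of 1.47, larger than that of 99.3% of all genes, beside 1.01 for Napsa, 0.67 for Ager, 0.45 for Sftpb, 0.34 for Sftpd, 0.33 for Lamp3, 0.32 for Sftpa1 and 0.245 for Abca3; the median gene had 0.244.

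The OVA change of Sftpc was 1.34 ± 0.96 in wt (SE; limma, adjusted p = 0.516) and -2.63 ± 0.96 in ko (adjusted p = 0.331), and saline and OVA arrays overlapped in both. The difference between these changes was -3.97 ± 1.36 (limma, adjusted p = 0.993). Within the 3 slides the ko difference was 2.52, -4.66 and -4.05, so its sign was not the same on each slide, and the wt difference was 0.22, 1.90 and 1.52.

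The genes most like Sftpc over the 16 arrays were Cldn5, a junction protein of endothelium (r = 0.93), Ccn4, a matricellular protein (0.89), Septin4, a cytoskeletal GTPase (0.87), Thbd, which encodes thrombomodulin of vessel walls (0.85), and Icam2, an adhesion molecule of endothelium (0.85). Cldn5 lay at -0.72 on wt_OVA 1, -2.04 on wt_OVA 4, -1.56, -1.94 and -0.36 on ko_saline 1, 2 and 3, and -1.38 on ko_OVA 3. It was at -3.30 on ko_saline 4 and at the floor on the remaining 9 arrays. The 6 arrays with Cldn5 at -2.04 or higher were thus those with high Sftpc. These 6 arrays lay on all 4 slides. The Cldn5 probe was well above background on 12 of 16 arrays, so the floor hides its signal on some of the others.

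Of the endothelium list 10 of 12 genes were measured. Its mean level on the arrays ran from -2.28 to -1.91 in wt_saline, from -2.27 to -1.12 in wt_OVA, from -2.09 to -1.06 in ko_saline and from -2.43 to -1.71 in ko_OVA. The 6 arrays with high Sftpc had means of -1.82 to -1.06, and the 10 others had -2.43 to -1.91. The list holds Cldn5, itself picked for its likeness to Sftpc, and the gap between these ranges rests on it. Leaving Cldn5 out of the mean would put wt_saline 4 above wt_OVA 4. Ramp2, Calcrl, Egfl7 and Vwf were above the floor on all 16 arrays, Kdr on 13, Esam on 11 and Cldn5 on 7. Emcn left it on 5, Cdh5 on 4 and Pecam1 on 1. With OVA 0 of the 10 were called in wt, and in ko 1 was called, Kdr, a receptor for VEGF, which fell by 2.25 (limma, adjusted p = 0.0453). Of all genes 2.61% were called in wt in either direction, and 0.269% were called lower in ko. Genes of lung fibroblasts and smooth muscle, 13 measured, had a mean level of 0.18 to 0.86 on the 6 arrays with high Sftpc and -0.94 to 0.34 on the others. Genes of striated muscle, 10 measured, had means of 3.70, 4.26 and 2.52 on wt_OVA 1, ko_saline 2 and ko_saline 3, and -2.77 to -1.43 on the other 3 arrays with high Sftpc. The part of any of these cells in the Sftpc signal was not tested.

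**Figure D4:**
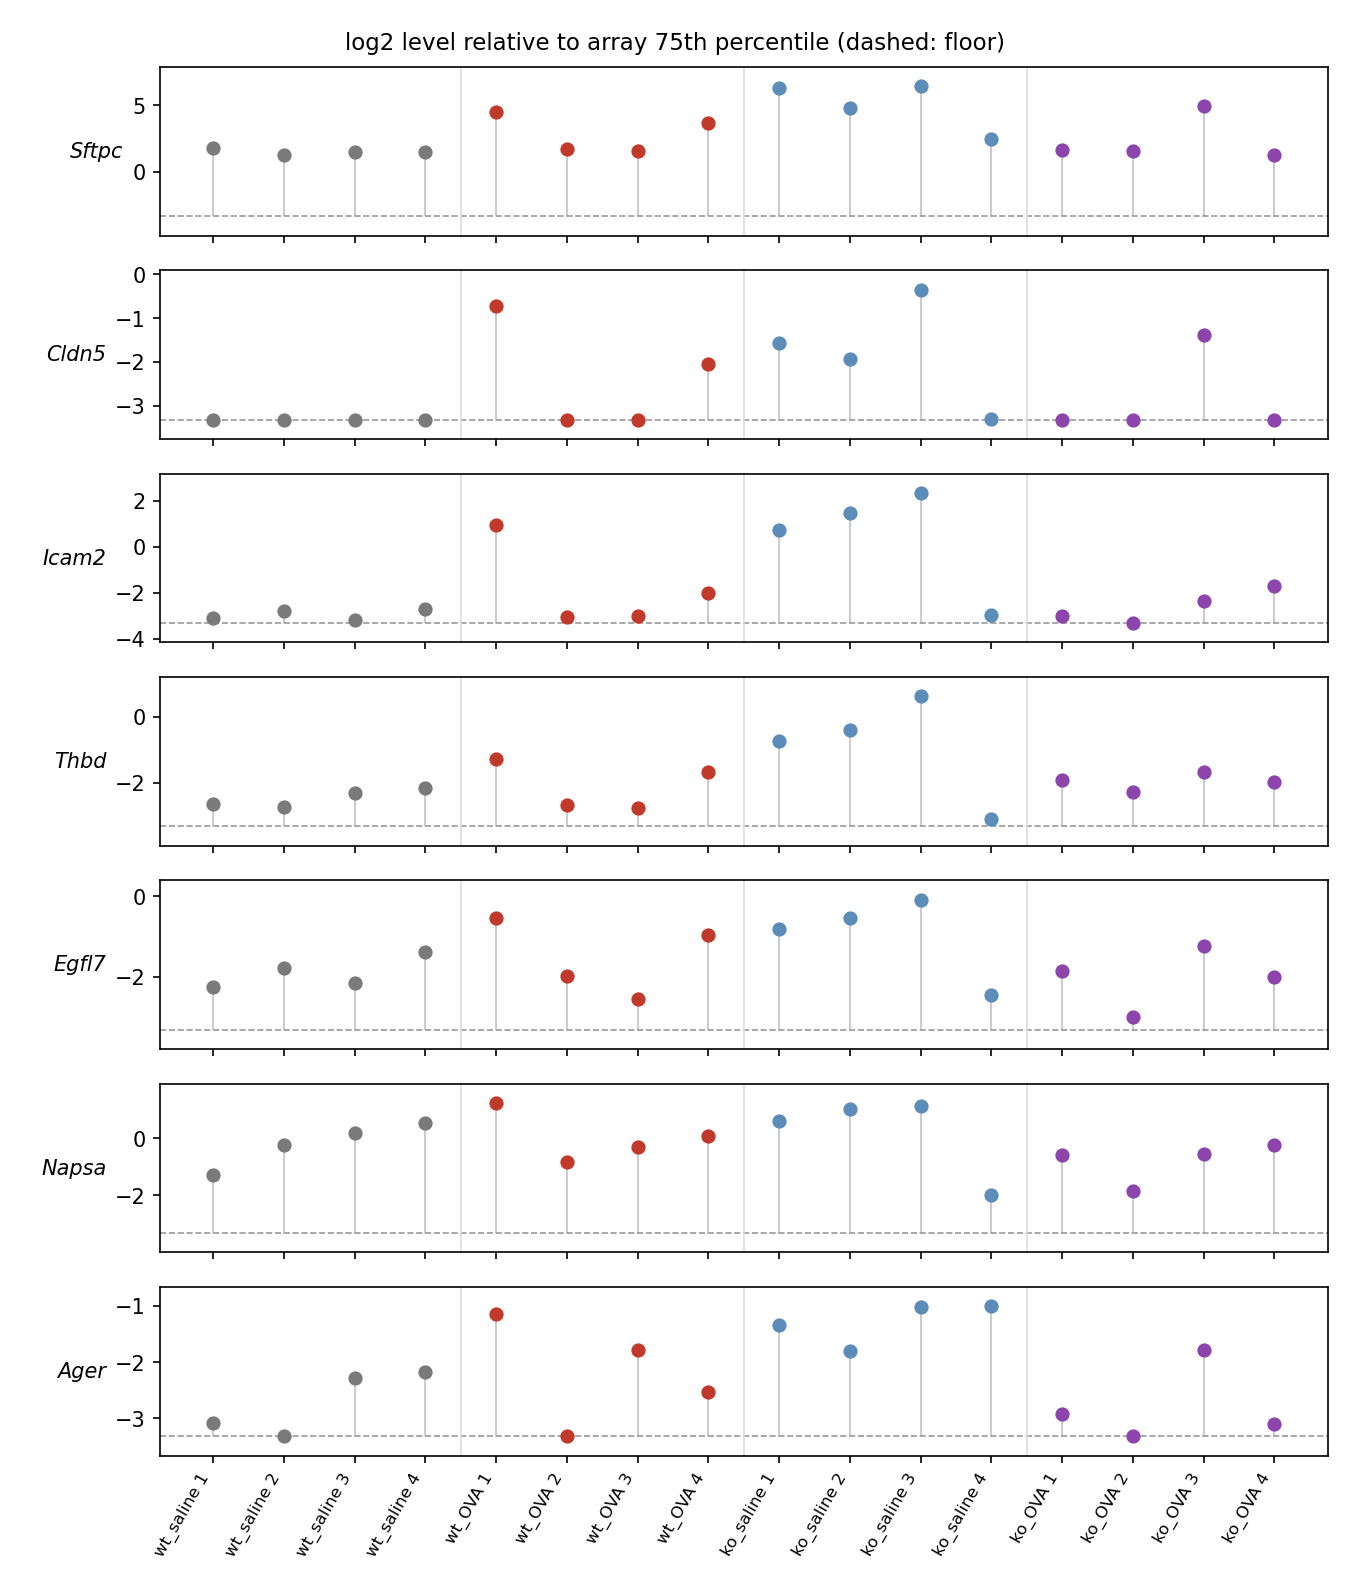
Sftpc, 4 genes of endothelium (Cldn5, Icam2, Thbd, Egfl7), Napsa and Ager on each of the 16 arrays, as log2 level relative to the array's 75th percentile; colours mark the 4 groups and the dashed line is the floor at -3.32. High Sftpc, from 3.69 to 6.4, and Cldn5 at -2.04 or higher stand on the same 6 arrays. Cldn5, Icam2 and Thbd were picked for their r with Sftpc, and Egfl7 with its values in view. Their likeness to Sftpc is therefore no separate result.

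Napsa encodes the aspartic protease that trims the precursors of SP-B and SP-C. It lay at -1.27, -0.24, 0.19 and 0.54 in wt_saline, at 1.23, -0.84, -0.29 and 0.08 in wt_OVA, at 0.60, 1.01, 1.12 and -1.99 in ko_saline and at -0.57, -1.86, -0.56 and -0.22 in ko_OVA. The groups overlapped, and the change was 0.24 ± 0.66 in wt (limma, adjusted p = 0.890) and -0.99 ± 0.66 in ko (adjusted p = 0.730). Its highest values, on wt_OVA 1 and ko_saline 1, 2 and 3, stood on arrays with high Sftpc, and its r with Sftpc was 0.57, beside 0.04 with Sftpb. On wt_OVA 4 and ko_OVA 3, also with high Sftpc, Napsa was at 0.08 and -0.56. The genes most like Napsa were Pld4, Egfl7, Ly86, Map4k1 and Trex1, with r from 0.83 to 0.85.

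Ager encodes the receptor for advanced glycation end products, a marker of type 1 cells, and it was dim. It lay at -3.08, the floor, -2.28 and -2.18 in wt_saline, at -1.15, the floor, -1.79 and -2.52 in wt_OVA, at -1.33, -1.80, -1.02 and -1.01 in ko_saline and at -2.92, the floor, -1.79 and -3.10 in ko_OVA. The probe was well above background on 3, 4, 4 and 2 arrays of these groups, and sizes of its changes depend on the floor. The difference of OVA and saline was 0.52 ± 0.44 in wt (limma, adjusted p = 0.583) and -1.49 ± 0.44 in ko (adjusted p = 0.186), and the groups overlapped in both. Its r with Sftpc was 0.71 over 16 arrays. The genes most like Ager were Zbtb32, Fut4, Lrp2, Zfp40 and Rbis, with r from 0.72 to 0.78.

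The comparison of ko with wt asked whether the integrin subunit affects these genes. None of the 8 genes was called after saline, where 0.162% of all genes were called (0.124% higher, 0.0377% lower), or after OVA, where 0.145% were (0.102% higher, 0.0431% lower). After saline Sftpc was higher in ko on every array, with group means of 4.98 and 1.53 and a difference of 3.45 ± 0.96 (limma, adjusted p = 0.411). Ager was likewise higher on every ko array, by 1.42 ± 0.44 (limma, adjusted p = 0.515). Groups that did not overlap in this direction were found for 1.99% of all genes, and in the other for 2.06%. After OVA none of the 8 genes had groups that did not overlap, beside 1.63% of all genes with ko higher and 0.743% with ko lower. Markers of alveolar macrophages, 15 measured, had mean levels of 0.51 to 0.92 on the wt arrays and -0.60 to 0.36 on the ko arrays. Of these 15 genes 2 were called lower in ko after saline and 1 after OVA, with 0 higher. Beside these, 0.0377% and 0.0431% of all genes were called lower. The median macrophage difference was -0.34 after saline and -0.23 after OVA. The median difference of ko and wt after saline was 0.44 for the endothelium list, 0.45 for lung fibroblasts and smooth muscle and 1.89 for striated muscle, beside 0.00 for all genes, with 0 genes of these 3 lists called. The part of any of these cells in the differences was not tested. Within the 3 slides with both genotypes after saline, the differences were 0.92, 4.50 and 4.31 for Sftpc and 1.17, 1.74 and 1.91 for Ager. With normexp background correction the Ager difference was 0.25.

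After OVA the difference of ko and wt was 0.68 ± 0.30 for Sftpb (limma, adjusted p = 0.883), -0.52 ± 0.96 for Sftpc (adjusted p = 0.968) and -0.59 ± 0.44 for Ager (adjusted p = 0.883). After saline Sftpb differed by 0.36 ± 0.30 (adjusted p = 0.905), so its genotype differences were small beside its fall with OVA. The interaction was called for 0 of the 8 genes and 0 of all 18570 by limma, with 568 genes at an unadjusted p under 0.05.

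Of 21 genes of type 2 cells 17 were measured, and with OVA Sftpb was the only 1 called in each genotype, with list medians of -0.14 in wt and -0.27 in ko. Of all genes 1.06% were called lower in wt and 0.269% in ko. Averaged over genotypes 2 of the 17 were called lower and 0 higher, where 2.74% of all genes were called lower, and these were Sftpb and Hc (-1.79, adjusted p = 0.0342). Of the 17 genes 14 were above the floor on every array with a value, Sftpc among them and also Cxcl15, a lung chemokine, at 1.69 to 3.21. The other 3 were Il33, an alarmin cytokine, above it on 14 of 16 arrays, Slc34a2, the phosphate transporter of type 2 cells, on 8, and Acoxl on 2. Hc, which encodes complement C5 and is named here because of its values, was the only gene of the list called between genotypes averaged over agents, for which 0.269% of all genes and 0 of the 8 were called (0.205% of all genes higher, 0.0646% lower). It was higher in ko by 2.53 ± 0.46 (limma, adjusted p = 0.0324). The cause of this Hc difference was not tested.

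Of 15 genes of type 1 cells 14 were measured, and 1 was called lower in wt and 0 in ko, beside 1.06% and 0.269% of all genes. The gene called was Gprc5a, an orphan receptor that airway epithelium also expresses, at -0.73 in wt (limma, adjusted p = 0.0391) and -0.37 in ko (adjusted p = 0.519). Averaged over genotypes 4 of the 14 were called lower and 0 higher, beside 2.74% of all genes lower: Gprc5a (-0.55, adjusted p = 0.0165), the chloride channel family genes Clic3 (-0.80, adjusted p = 0.0146) and Clic5 (-0.36, adjusted p = 0.0372), and Vegfa, a vascular growth factor (-0.44, adjusted p = 0.0488). The list medians were -0.17 in wt, -0.24 in ko and -0.26 averaged. Of the 14 genes 10 were above the floor on every array with a value, such as Aqp5, a water channel, and Hopx, a homeodomain protein. The other 4 were Ager, above it on 13 of 16 arrays, Spock2 on 9, Cldn18, a tight junction protein of alveolar cells, on 5, and Akap5 on 1.

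Of 29 genes of surfactant processing and lipid metabolism 26 were measured, and 2 were called higher in wt and 1 in ko, with none lower. Of all genes 1.56% were called higher in wt and 0.479% in ko. Averaged over genotypes 3 of the 26 were called higher and 0 lower, where 3.72% of all genes were called higher. Adra2a, an adrenergic receptor, rose by 3.14 in wt (limma, adjusted p = 9.21e-05) and by 2.25 in ko (adjusted p = 0.00140), and Pcyt1b, an enzyme of phosphatidylcholine synthesis, rose by 0.79 in wt (adjusted p = 0.05). The genes called in wt or in ko include no processing enzyme of SP-B: Ctsh, a protease that acts with Napsa, was at -0.14 in wt (adjusted p = 0.507) and -0.06 in ko (adjusted p = 0.971). The list medians were 0.03 in wt and -0.05 in ko, close to the 0.00 of all genes.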

How the data were processed

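Per the labels' protocols, RNA was labelled with Cy3 for one-colour arrays of the 4x44K mouse design. The scanner files hold background-subtracted processed signals in intensity units, as deposited. Per the file headers they were made with Feature Extraction 10.5.1.1, while version 10.1 is named per the submitters' processing notes. A further table deposited for the whole series is on a log2 scale, with a normalization not given in the sources used here, and it served as an alternative.

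Control spots and outlier spots were left out (2 of them Sftpd spots), repeated spots averaged, and signals divided by each array's 75th percentile, floored and put on the log2 scale (floor -3.32). Probes had to be well above background on 4 arrays or more, which 25622 of 41174 were. Each gene was represented by its brightest probe, giving 18570 genes and transcripts, 12853 of them named through RefSeq accessions (GRCm38.p6). One limma model (version 3.58.1, R 4.3.3) held the means of the 4 groups for all 16 arrays, and p-values were adjusted by Benjamini-Hochberg with a threshold of 0.05. The code was tested on simulated data.

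The 8 genes, the gene lists and the tests were chosen with earlier results of these data known. The genes named were these 8, the 5 genes most correlated with Sftpb, Sftpc and Ager, and up to 4 called genes of a list, or the 2 of smallest p where none was called. Further genes (Nkx2-1, Foxa1, Foxa2, Cebpa, Gata6, Ctsh, Hc, Clic3, Clic5, Vegfa, Egfl7 and the markers given with their detection) were named with their values in view. So were the 5 genes most correlated with Napsa. Alternatives covered scaling, background correction (normexp on the median spot signal, offset 50), floor, filters, probe choice, slide, array position, replicate number and leaving out each array.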

Additional observations from a re-analysis of the deposited data

Results flagged for a closer look

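A single array far from the other 3 of its group was looked for in 30 combinations of gene and group, and was found in 2, where chance gives about 1 in 20. Sftpc was at 4.96 on ko_OVA 3, against 1.29 to 1.63 on the other ko_OVA arrays. Napsa was at -1.99 on ko_saline 4, against 0.60 to 1.12 on the other ko_saline arrays.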

How the results depend on the processing

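Sftpb kept its direction with OVA under every alternative, between -3.15 and -2.06 in wt over 30 alternatives (highest adjusted p 0.00877, limma) and between -2.74 and -2.04 in ko. In ko it missed the threshold with only the groups compared, at -2.56 (adjusted p = 0.0992), where 0 of the 8 genes were called. For OVA averaged over genotypes, 2 of the 8 were called, Sftpb and Sftpa1, under quantile normalization, normexp, the mean of probes and the series table, 2 of the 7 tested with a filter on all arrays, which drops Ager, and 1 to 2 with each array left out. Between groups, correlations of arrays with the same replicate number ran from -0.40 to 0.41, with a median of -0.008. Those of arrays with different numbers ran from -0.57 to 0.48, with a median of -0.015, so no pairing by number was seen. With the numbers as a replicate block, Sftpb stood at -2.88 in wt (limma, adjusted p = 0.00219), -2.56 in ko (0.00589) and -2.72 averaged (0.000144). The values that changed sign belonged to uncalled genes. With OVA in wt, Napsa was -0.033 under median scaling and -0.20 with array position, and Ager -0.10 with array position. Sftpd in ko was -0.031 in the series table. Lamp3 with slide as a fixed block was 0.10 in wt, 0.042 in ko and 0.073 averaged. Sftpc between genotypes after OVA was 0.22 with array position. With each array left out, Lamp3 ran from -0.17 to 0.10 in wt, from -0.32 to 0.076 in ko and from -0.18 to 0.016 averaged. Napsa in wt ran from -0.15 to 0.54. Sftpd ran from -0.060 to 0.39 in ko and from -0.21 to 0.019 averaged, and Sftpc between genotypes after OVA from -1.39 to 0.026. The cause was not tested. Counts over all genes with OVA were 289 higher and 196 lower in wt, against 39 and 61 under median scaling, 110 and 102 with normexp, 72 and 22 with array position and 143 and 92 with only the groups compared. In ko 89 and 50 became 23 and 12 under median scaling, 44 and 34 with normexp and 6 and 1 with only the groups compared. Averaged over genotypes, 691 and 509 became 117 and 262 under median scaling, 302 and 280 with normexp, 412 and 335 with slide as a fixed block and 358 and 167 with array position. With 4 arrays a group, small changes of dim probes such as Ager are limited by background.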
